A study of Mus musculus with 4 samples.

Results

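The 10 genes described here mark the resident macrophages of the liver, the Kupffer cells: Cd163, Marco, Clec4f, Timd4, Vsig4, Cd5l, Id3, Csf1r, Adgre1 and Mrc1. They were found on a mouse whole-genome expression array through the transcript accession that each spot carries, which gave 13 probes for the 10 genes, out of 56605 probes and 23462 gene symbols in all. Of these genes 7 had 1 probe, and Cd163, Csf1r and Adgre1 had 2 probes each. Whole liver RNA of male mice was labelled with Cy5 and hybridized to 4 arrays. The groups were aging diabetic mice given astragalus polysaccharide (APS) together with metformin, aging diabetic mice given metformin, aging diabetic mice, and natural aging mice. All mice had been fasted for 12 hours. Each group had 1 array, so every difference below has no replicate check and no test was possible. The labels used here do not give the strain, the age in months, the way diabetes was brought about, the doses, the meaning of the 60d that every sample title carries, or whether an array holds the RNA of a single mouse or of a pool. Metformin is an oral drug that lowers blood glucose, and APS is a polysaccharide fraction of Astragalus root.

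Kupffer cells sit in the liver sinusoids and clear particles, bacteria, old red cells and free hemoglobin from portal blood. They live on signalling through the CSF1 receptor, and BMP and TGF-beta ligands from sinusoidal endothelium, stellate cells and hepatocytes act through SMAD proteins on genes such as Id3, a regulator that mouse Kupffer cells need. LXR alpha, the product of Nr1h3, keeps genes such as Clec4f on in these cells. In many inflamed mouse livers, incoming monocytes that lack some of these markers replace part of the resident cells. In bulk liver RNA, fewer Kupffer cells and less RNA of a gene per cell cannot be told apart.

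Cd163, Marco, Clec4f and Id3 had the patterns that set the metformin arrays apart, and the bases just before their annotated starts are shown to give the sequence that each pattern belongs to. They are RefSeq sequences of the mouse build GRCm38.p6, printed 5′ to 3′ on the gene's strand; capitals mark each match to a searched motif on either strand. The motifs were GAGGAA (the core that the macrophage factor PU.1 and related ETS factors bind), TGCTGA (part of the MAF site), AGGTCA (a nuclear receptor motif), GGCGCC (a SMAD site of BMP-responsive genes) and TATAAA (the TATA box).
Cd163: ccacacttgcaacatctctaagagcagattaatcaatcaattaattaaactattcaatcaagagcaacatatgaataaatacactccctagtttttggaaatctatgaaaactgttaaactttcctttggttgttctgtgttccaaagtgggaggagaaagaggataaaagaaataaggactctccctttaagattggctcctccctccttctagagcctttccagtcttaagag
Marco: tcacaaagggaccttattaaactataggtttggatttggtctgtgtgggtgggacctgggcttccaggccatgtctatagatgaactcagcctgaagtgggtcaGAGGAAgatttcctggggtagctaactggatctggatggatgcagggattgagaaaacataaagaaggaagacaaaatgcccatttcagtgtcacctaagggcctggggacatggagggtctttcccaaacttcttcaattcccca
Clec4f: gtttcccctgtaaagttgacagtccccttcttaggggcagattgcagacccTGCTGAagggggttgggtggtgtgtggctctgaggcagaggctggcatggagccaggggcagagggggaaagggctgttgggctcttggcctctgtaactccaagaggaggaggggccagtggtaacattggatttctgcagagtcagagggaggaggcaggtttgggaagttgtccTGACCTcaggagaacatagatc
Id3: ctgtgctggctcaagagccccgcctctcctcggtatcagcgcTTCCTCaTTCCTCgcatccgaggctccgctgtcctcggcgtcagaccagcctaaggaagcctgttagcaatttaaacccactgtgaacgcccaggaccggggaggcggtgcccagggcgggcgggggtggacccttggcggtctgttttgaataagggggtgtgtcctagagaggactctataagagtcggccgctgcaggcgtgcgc
The Cd163 window is 235 bases on the plus strand, chr6:124304401-124304635, and held no match. The Marco window lies on the minus strand at chr1:120505025-120505274 and held 1 GAGGAA. The Clec4f window lies on the minus strand at chr6:83656117-83656366 and held 1 TGCTGA and, on the opposite strand as TGACCT, 1 AGGTCA. The Id3 window lies on the plus strand at chr4:136143572-136143821 and held 2 GAGGAA on the opposite strand, read as TTCCTC. Over the 250 bases before 32851 mouse gene starts, 23.3% held GAGGAA, 16.1% TGCTGA, 14% AGGTCA, 9.59% GGCGCC and 12.4% TATAAA, so each match was to a common word. Of the 10 genes, 8 matched an entry of the RefSeq table; Csf1r and Adgre1 did not. Of the matched genes not printed, Vsig4 held 2 GAGGAA, Mrc1 held 3 GAGGAA, Cd5l held 2 TGCTGA and 1 GAGGAA, and Timd4 held 2 TGCTGA and 1 AGGTCA. A match is a description of the letters only. The windows differed in base composition, with 36.6% G and C for Cd163, 47.6% for Marco, 57.2% for Clec4f and 62.8% for Id3.

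Signals are given as log2 levels relative to the array's own 75th percentile, so 0 is that percentile and a difference of 1 is 2-fold. The 75th percentile was 3406 intensity units on the APS plus metformin array, 3589 on the metformin array, 3068 on the aging diabetic array and 2700 on the natural aging array, and 56.8% to 63.1% of spots were well above background. No spot was saturated. All 4 arrays lay on 1 slide. Probes spotted 10 times on an array had a median SD of 0.06 to 0.07 log2 between their spots. The measurement error that the scanner software gives for a difference between arrays had a median of 0.16 log2 over the members; it leaves out differences between animals and between RNA preparations. Below, a difference is called beyond the measurement error where it is larger than 1.96 such errors. Of the 13 member probes, 11 were well above background on all 4 arrays, and the second probes of Cd163 and Adgre1 were not well above background on any array.

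Cd163 and Marco, both scavenger receptors, had much lower signals on both metformin arrays than on the others. Cd163 takes up complexes of hemoglobin and haptoglobin and lies on chromosome 6, 124304636 to 124330529 (GRCm38.p6). Its level was -1.01 with APS plus metformin, -1.10 with metformin, 0.75 in the aging diabetic liver and 1.47 in the natural aging liver, which in processed intensity is 1690, 1679, 5171 and 7474 units. The metformin arrays lay together and below both others, and the aging diabetic array lay below the natural aging array by more than the measurement error. The dim second Cd163 probe read -6.81, -7.22, -5.47 and -4.83 on the same arrays and was not well above background on any of them.

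Marco, a receptor for bacteria and other particles, lies on chromosome 1, 120474538 to 120505024. Its level was -1.32 with APS plus metformin, -0.37 with metformin, 1.02 in the aging diabetic liver and 1.33 in the natural aging liver. The APS plus metformin array was lowest and the metformin array next, while the aging diabetic and natural aging arrays differed by no more than the measurement error. Clec4f, a lectin that in the mouse is a Kupffer cell marker, lies on chromosome 6, 83644542 to 83656116. Its level was 2.43 with APS plus metformin, 2.63 with metformin, 2.97 in the aging diabetic liver and 3.47 in the natural aging liver. The order of the arrays was the same as for Marco, over a smaller range; the aging diabetic array lay below the natural aging array by more than the measurement error, and the metformin arrays did not differ from each other beyond the measurement error.

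Id3 ran the other way. This small helix-loop-helix protein blocks DNA binding by other factors of its class, and its gene lies on chromosome 4, 136143822 to 136145392. Its level was 2.63 with APS plus metformin, 2.67 with metformin, 1.96 in the aging diabetic liver and 1.47 in the natural aging liver. Both metformin arrays were above both others, and lay within the measurement error of each other.

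**Figure D1:**
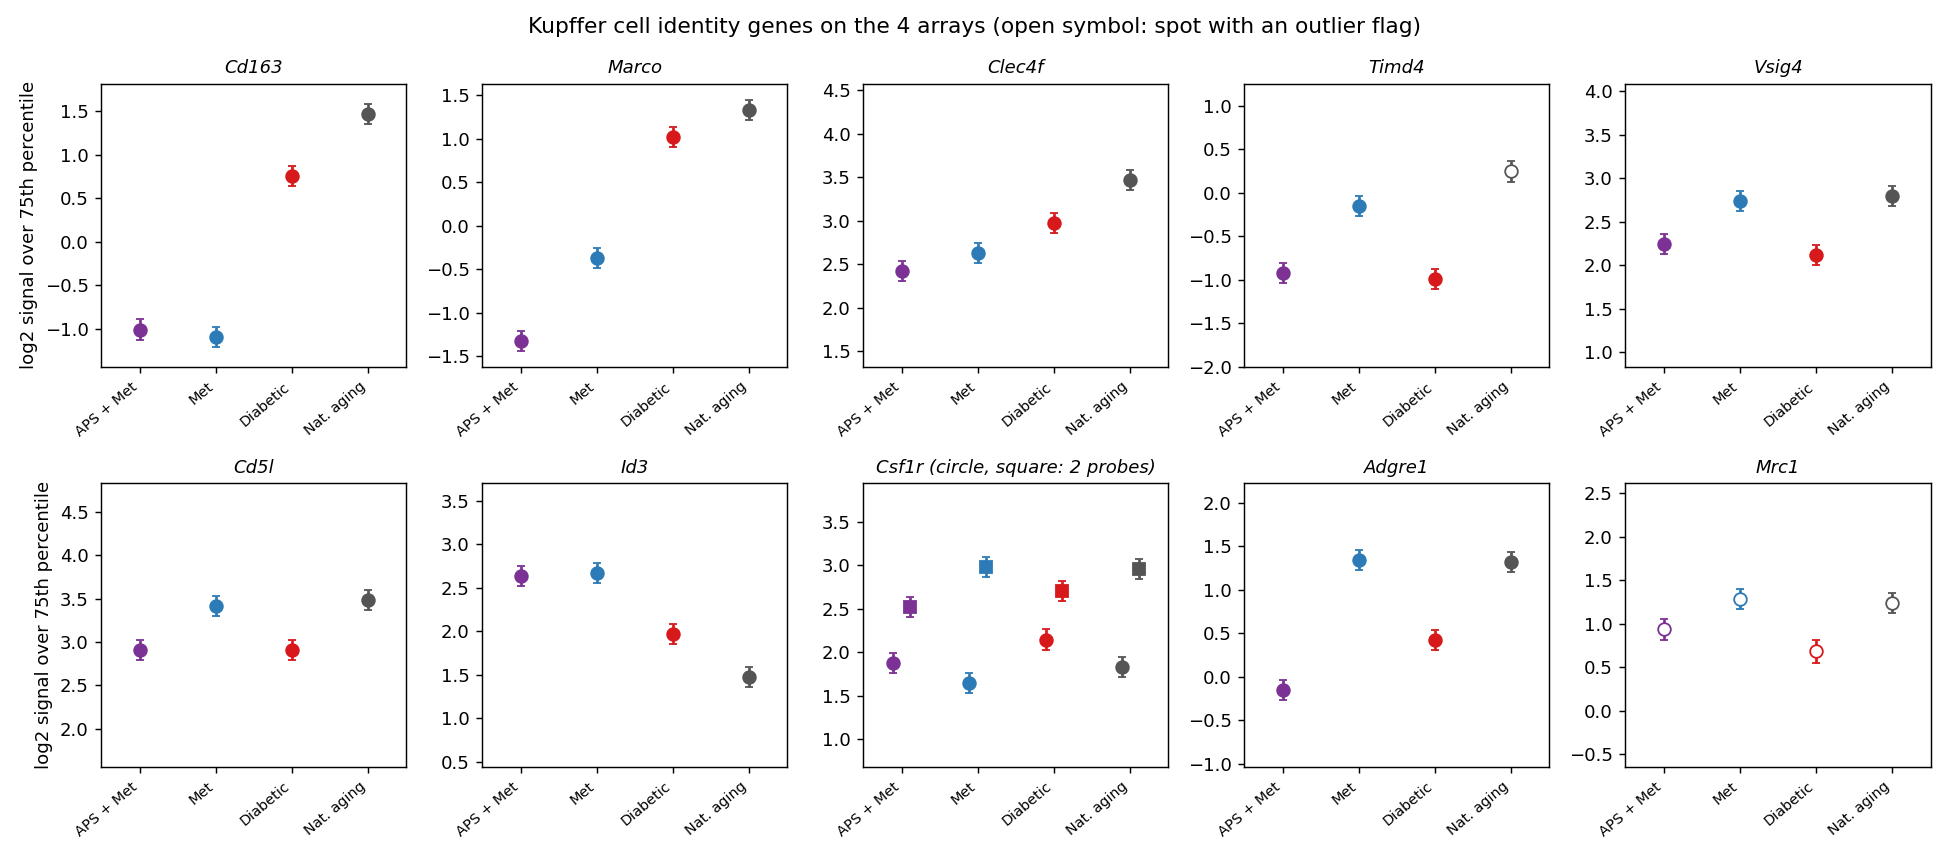
Level of each of the 10 genes on the 4 arrays (x axis, array; y axis, log2 signal over the array's 75th percentile; 1 array per group). Points are single probes with bars of 1 measurement error, open points are spots with an outlier flag, and for Csf1r the circle and the square are its 2 probes; each panel spans the same number of log2 units, and Cd163 and Marco cover most of it, with -1.10 the lowest Cd163 and 1.47 the highest.

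A second group of genes was high on the metformin and natural aging arrays and low on the other 2. Vsig4, the complement receptor CRIg through which Kupffer cells catch bacteria coated with complement (chromosome X, 96247201 to 96293438), had levels of 2.25 with APS plus metformin, 2.73 with metformin, 2.12 in the aging diabetic liver and 2.80 in the natural aging liver. Cd5l, a secreted protein of tissue macrophages also known as AIM (chromosome 3, 87357881 to 87371074), had 2.91, 3.41, 2.90 and 3.48 on those arrays in the same order. For both genes the metformin and natural aging arrays lay within the measurement error of each other, as did the APS plus metformin and aging diabetic arrays.

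Adgre1 encodes an adhesion receptor that is the antigen most used to stain mouse macrophages, and lies on chromosome 17, 57358581 to 57483529. Its usable probe read -0.16 with APS plus metformin, 1.34 with metformin, 0.42 in the aging diabetic liver and 1.32 in the natural aging liver. The metformin and natural aging arrays were alike within the measurement error, the aging diabetic array was lower, and the APS plus metformin array was lowest. Timd4, the phosphatidylserine receptor TIM-4 that marks embryo-derived Kupffer cells in mice (chromosome 11, 46810786 to 46844333), read -0.92 with APS plus metformin, -0.16 with metformin, -0.99 in the aging diabetic liver and 0.25 in the natural aging liver. The natural aging spot of Timd4 carries an outlier flag, so its comparisons with that array are described but not counted.

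Mrc1, the mannose receptor, is also made by sinusoidal endothelium and lies on chromosome 2, 14229414 to 14332023. Its probe read 0.93 with APS plus metformin, 1.29 with metformin, 0.68 in the aging diabetic liver and 1.24 in the natural aging liver, but its spot carries a flag for uneven signal on all 4 arrays and it is left out of every count. Csf1r, the receptor for CSF1 and IL-34, lies on chromosome 18, 61105572 to 61131139. The brighter of its probes read 2.52, 2.98, 2.70 and 2.96 on the APS plus metformin, metformin, aging diabetic and natural aging arrays. The other Csf1r probe read 1.88, 1.65, 2.15 and 1.84 in that order. The probes put the arrays in different orders, so no direction is given for Csf1r, and every pair of neighbouring levels lay within the measurement error for either probe. Some pairs further apart exceeded it. For the brighter probe, APS plus metformin read -0.46 against metformin and -0.44 against natural aging. For the other probe, metformin read -0.50 against the aging diabetic array.

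In the metformin liver against the aging diabetic liver, the question was what metformin alone went with. Cd163 was 3.60-fold lower (log2 difference -1.85) and Marco 2.62-fold lower (-1.39), and they were the 2 of 9 compared genes at least 2-fold apart. Over all 15812 genes compared there, 15.3% were at least 2-fold apart, 3.5% lower and 11.8% higher. The other members lay on both sides of 0, with Clec4f at -0.34 and Vsig4, Cd5l, Id3, Timd4 and Adgre1 at 0.61, 0.51, 0.71, 0.84 and 0.92. Adgre1 was just past 2-fold under 4 of the 10 alternative settings, where its difference reached 1.01, which made 3 genes. The median of the 9 was 0.51, beside -0.0029 over all genes compared and -0.14 over genes above the 75th percentile on both arrays. The 2 receptors thus stood on the other side of 0 from most other members in this comparison.

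In the APS plus metformin liver against the aging diabetic liver, Marco was 5.09-fold lower (-2.35) and Cd163 3.40-fold lower (-1.76), again 2 of 9 genes, where 6.79% of all 15411 genes were at least 2-fold lower and 4.39% higher. Id3 was 0.67 above the aging diabetic array, Clec4f 0.55 below it and Adgre1 0.58 below it. Timd4, Vsig4 and Cd5l differed by 0.07, 0.13 and 0.0028, all within the measurement error. The median of the 9 was -0.18, beside 0.02 over all genes and 0.01 over genes above the 75th percentile on both arrays.

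In the APS plus metformin liver against the metformin liver, the question was what adding APS went with. Adgre1 was 2.83-fold lower (-1.50), the 1 of 9 genes at least 2-fold apart, where 12.1% of all 16076 genes were lower and 2.31% higher by that much. Marco was 1.94-fold lower (-0.96), just short of 2-fold. Timd4, Cd5l and Vsig4 read -0.76, -0.50 and -0.49, whereas Clec4f at -0.21, Cd163 at 0.08 and Id3 at -0.04 were within the measurement error of no difference. The median of the 9 was -0.49, beside -0.02 over all genes and 0.13 over genes above the 75th percentile on both arrays.

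In the aging diabetic liver against the natural aging liver, 0 of 8 compared genes were at least 2-fold apart, where 14.2% of all 15036 genes were, 8.14% higher and 6.01% lower. There 7 of the 8 were lower: Adgre1 by -0.90, Cd163 by -0.72, Vsig4 by -0.68, Cd5l by -0.58, Clec4f by -0.50, Marco by -0.31 and the brighter Csf1r probe by -0.26 on the log2 scale. Of these, the Marco and Csf1r differences did not exceed the measurement error, and the other Csf1r probe read 0.31. Id3 was 0.49 higher. The median of the 8 was -0.54, beside -0.04 over all genes and -0.11 over the genes above the 75th percentile on both arrays. Timd4, with its flagged spot, read -1.24 there and -1.17 in the APS plus metformin against the natural aging liver, and Mrc1, flagged on every array, lay between -0.56 and 0.60 over the 6 comparisons.

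Each treated liver was also set against the natural aging liver; these comparisons share arrays with those above and are not separate support for them. With metformin, Cd163 was 5.92-fold lower (-2.56) and Marco 3.26-fold lower (-1.70), 2 of 8 genes where 4.66% of all 15932 genes were lower by that much. Id3 was 2.30-fold higher (1.20), 1 of 8 where 12.8% of all genes were. Vsig4, Cd5l and Adgre1 lay at -0.06, -0.07 and 0.02 there, beside a median of -0.23 over genes above the 75th percentile on both arrays. With APS plus metformin, Marco was 6.31-fold lower (-2.66), Cd163 5.58-fold lower (-2.48), Adgre1 2.79-fold lower (-1.48) and Clec4f 2.07-fold lower (-1.05), 4 of 8 genes where 6.49% of all 15490 genes were. Id3 was 2.23-fold higher (1.16), 1 of 8 where 6.2% were. The median over genes above the 75th percentile on both of these arrays was -0.11. Clec4f was under 2-fold in 4 of 10 alternative settings, and its difference lay between -1.07 and -0.86 over the 10.

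**Figure D2:**
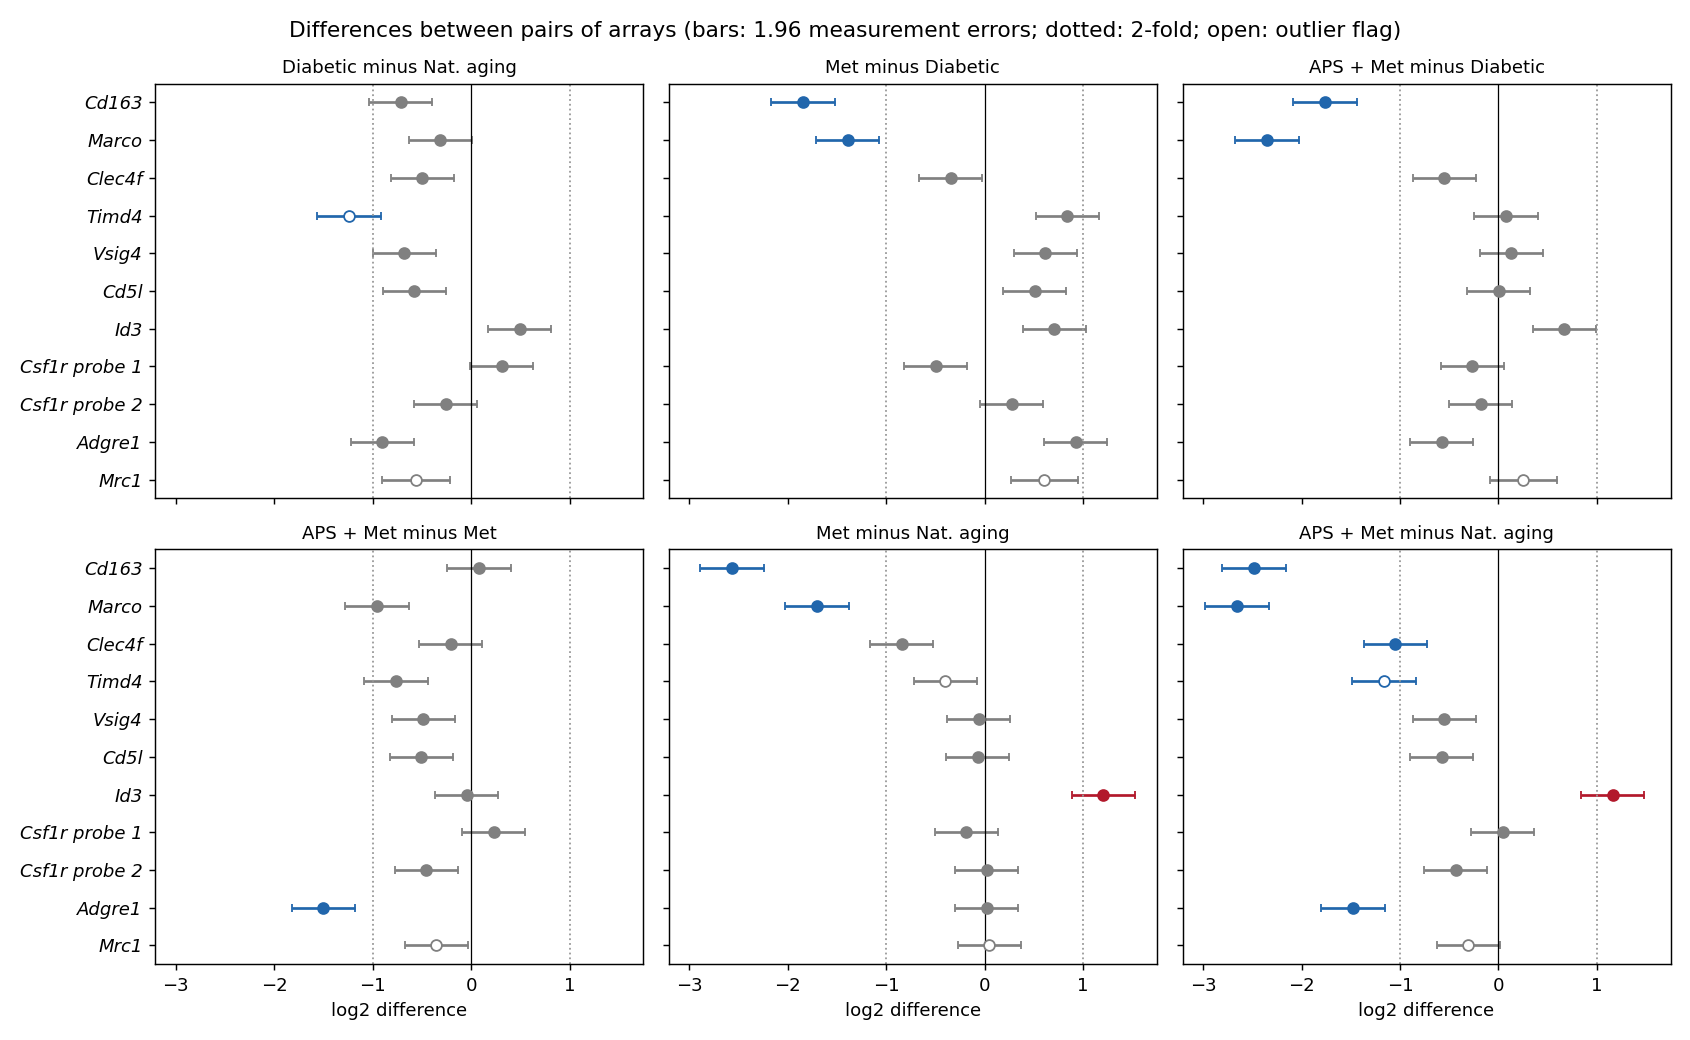
Log2 difference of each member in the 6 comparisons (x axis, log2 difference, first-named array minus the second; y axis, gene, with 2 rows for the Csf1r probes; bars, 1.96 measurement errors; dotted lines, 2-fold; open points, a spot with an outlier flag). Cd163 and Marco lie left of the 2-fold line in the 4 panels that set a metformin array against an aging diabetic or natural aging array, and Id3 lies right of it in both panels against the natural aging array.

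Set over the 4 arrays, the pattern of Cd163 and Marco was uncommon. Among 12689 genes well above background on all arrays, 49 (0.386%) were at least 2-fold lower on both metformin arrays than on each of the other arrays, and Cd163 and Marco were 2 of them. Both metformin arrays were lower than both others by any amount for 19.1% of all genes, among them Clec4f. Both metformin arrays were above both others for Id3 and for 14.4% of all genes, and the metformin and natural aging arrays were both above the other 2 for Vsig4, Cd5l, Adgre1 and the brighter Csf1r probe and for 13.6% of all genes. These patterns were picked after the values were seen and are descriptions. The genes whose centred levels over the 4 arrays lay nearest to Cd163 by root mean square difference were Gm38596 (0.190 log2) and Esr1, the estrogen receptor alpha gene (0.228). Nearest to Marco were B4galt5, a galactosyltransferase gene (0.129), and Zfp9, a zinc finger gene (0.155). Among the genes of the other lists the nearest to both was Camp, which encodes the neutrophil peptide cathelicidin (0.587 from Cd163 and 0.207 from Marco), and the next were the complement gene C6 for Cd163 (0.781) and Krt19, a bile duct keratin gene, for Marco (0.493).

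Other genes of Kupffer cells and tissue macrophages went with Vsig4, Cd5l and Adgre1 rather than with Cd163 and Marco. Of 26 listed genes, 19 were well above background on all arrays through a usable probe, and 16 of the 19 were higher on the metformin and natural aging arrays than on both others. The share over all genes was 13.6%. Steps of any size were counted, and some were small beside the members' median measurement error of 0.16. Clec1b read -0.04 with APS plus metformin against the natural aging liver. C6 read 0.18 with metformin against the aging diabetic liver. Il18bp read -0.26 in the aging diabetic against the natural aging liver. Clec1b and Il18bp are named after their values were seen. C1qa, C1qb and C1qc, the chains of complement C1q made by tissue macrophages, are named here after their values were seen. C1qa read 2.62 with APS plus metformin, 3.21 with metformin, 2.70 in the aging diabetic liver and 3.31 in the natural aging liver. C1qb read 2.04, 3.0, 2.43 and 2.84, and C1qc 1.45, 2.43, 1.73 and 2.20 in the same order. All 3 chains were thus higher on the metformin and natural aging arrays than on both others. Cd68, a lysosomal protein of macrophages, also named after its values were seen, read 1.66, 2.56, 1.82 and 2.44.

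Folr2, a folate receptor of resident macrophages, had the largest difference of this list between the metformin and aging diabetic arrays and between the aging diabetic and natural aging arrays. It read 0.71 with APS plus metformin, 2.37 with metformin, -0.31 in the aging diabetic liver and 1.99 in the natural aging liver, which is 6.44-fold higher with metformin and 2.04-fold higher with APS plus metformin than in the aging diabetic liver. Spic, a transcription factor of iron-recycling macrophages, read -1.94, 0.50, -1.45 and -0.66, and Siglec1, the sialic acid receptor CD169, read -2.62, -0.05, -1.95 and -1.50 in the same order of groups. Both peaked on the metformin array and were lowest with APS plus metformin, 5.43-fold and 5.93-fold below metformin. C6, a complement component whose mRNA is found in mouse Kupffer cells as well as hepatocytes, read -0.34, 1.33, 1.15 and 2.56, lowest with APS plus metformin and highest in the natural aging liver. Aif1, the macrophage protein IBA1, read 1.0, 2.61, 1.0 and 2.48, and Irf8, a transcription factor of myeloid cells, read -0.61, 0.35, -1.06 and 0.48.

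Sdc3, a syndecan found on macrophages, read 0.69 with APS plus metformin, 1.71 with metformin, -0.03 in the aging diabetic liver and 1.64 in the natural aging liver. Ctsc, the protease cathepsin C, read -1.80, -1.05, -1.62 and 0.59, with only the natural aging array high. Over the list, 8 of 21 compared genes were at least 2-fold higher and 0 lower with metformin than in the aging diabetic liver (median 0.74), and 0 of 19 were higher and 6 lower in the aging diabetic than in the natural aging liver (median -0.71). With APS plus metformin against metformin, 0 of 23 were higher and 7 lower (median -0.89), and against the aging diabetic liver 1 of 21 was higher and 1 lower (median -0.07). Against the natural aging liver, 2 of 23 were higher and 2 lower with metformin, and 0 of 22 were higher and 6 lower with APS plus metformin. The background shares given above for each comparison hold here too. Nr1h3, the LXR alpha gene, read 2.81, 2.99, 3.12 and 3.28 and was named after its values were seen; its other probe, also well above background on all arrays, read 0.37, 1.23, 0.99 and 1.37, so the probes disagree on the order of the metformin and aging diabetic arrays.

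Several genes of BMP and SMAD signalling were, like Id3, higher on both metformin arrays than on both others. Id1, a relative of Id3 and like it a target of BMP signalling, read 0.62 with APS plus metformin, 0.59 with metformin, -1.36 in the aging diabetic liver and -2.12 in the natural aging liver. Id1 was 3.95-fold higher with APS plus metformin and 3.86-fold higher with metformin than in the aging diabetic liver, and 6.67-fold and 6.53-fold higher than in the natural aging liver. Smad7, an inhibitory SMAD that is itself a target of this signalling, read 0.72, 0.25, -0.93 and -0.68 in the same order of groups, 3.14-fold higher with APS plus metformin and 2.26-fold higher with metformin than in the aging diabetic liver. Of 20 niche genes well above background on all arrays, 10 were higher on both metformin arrays than on both others. The share over all genes was 14.4%. The 10 included the ligand genes Gdf2 and Bmp6, the co-receptor gene Eng, Smad1, Smad5, Smad6, Smad7 and Id1. The LXR beta gene Nr1h2 and its pathway's target Mylip were the others. Some of the 10 are named after their values were seen. The count took steps of any size. For Nr1h2 the step was tiny, since it read 1.14 and 1.14 on the metformin arrays and 1.13 in the aging diabetic liver. Smad6 was 0.06 higher with APS plus metformin than in the aging diabetic liver. With APS plus metformin, Smad1, Eng and Gdf2 were 0.11, 0.12 and 0.27 above the natural aging liver. Smad5 was 0.28 higher with metformin than in the aging diabetic liver by its dimmer probe, the one counted. The brighter Smad5 probe, flagged on 1 array, read -0.09 there, so the probes disagree on whether Smad5 had this pattern. The smallest steps of Id1, Smad7, Bmp6 and Mylip were 1.95, 0.93, 0.75 and 0.65. Beside these, the median measurement error of the members' differences was 0.16.

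Among the ligands, Bmp6, which endothelial cells make, read -2.0 with APS plus metformin, -2.40 with metformin, -3.15 in the aging diabetic liver and -3.17 in the natural aging liver. Gdf2, which encodes BMP9 and is made by stellate cells, read 0.60, 1.09, -0.06 and 0.33 in that order and was 2.22-fold higher with metformin than in the aging diabetic liver. Il34, a ligand of the CSF1 receptor, read -1.67, -0.90, -3.21 and -1.56, with the aging diabetic array lowest, and was 4.93-fold higher with metformin and 2.89-fold higher with APS plus metformin than in that liver. The 3 probes of Csf1, the other ligand, disagreed: in the aging diabetic against the natural aging liver they read -1.02, 0.32 and 0.23, so no direction is given.

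Of the 25 niche genes, 5 of 21 compared were at least 2-fold higher and 0 lower with metformin than in the aging diabetic liver, where 11.8% of all genes were higher. With APS plus metformin 4 of 23 were higher and 0 lower than in that liver, where 4.39% of all genes were higher. None of 21 differed 2-fold between the treated livers, where 14.5% of all genes did. In the aging diabetic against the natural aging liver 0 of 22 were higher and 2 lower, where 6.01% of all genes were lower. Against the natural aging liver, 1 of 20 was higher and 0 lower with metformin, where 12.8% of all genes were higher, and 3 of 22 were higher and 2 lower with APS plus metformin, where 6.2% were higher and 6.49% lower. Nearest to Id3 over the 4 arrays among all genes were Dcun1d4 (0.0168 log2) and Cyp4f16 (0.0318). Among the other lists its nearest were Smad5, by the dimmer Smad5 probe (0.193), and Mylip (0.203). Nearest to Adgre1 were the T cell gene Cd8a (0.0622) and Mthfd2, a mitochondrial folate enzyme (0.0661), with the leukocyte gene Cd53 next among the lists (0.103). Nearest to Clec4f were the uncharacterised 4930592A05Rik (0.0264) and Gm8075 (0.0387), and among the lists Selp (0.153) and Mpo (0.171).

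Few of the usable genes tied to the cargo of Cd163 and to other scavenger routes were 2-fold apart between the arrays. Over all genes, 11.2% to 17.5% were at least 2-fold apart either way, depending on the comparison. With 7 or 8 genes compared, such counts do not set this list apart from all genes. Of the 9 listed genes, 0 of 7 compared were 2-fold apart with metformin against the aging diabetic liver, and with APS plus metformin 1 of 8 was higher and 0 lower, while none of the 7 or 8 genes compared was 2-fold apart in the other 4 comparisons. The gene was Msr1, the class A scavenger receptor in the same family as Marco, at -0.80 with APS plus metformin and -1.86 in the aging diabetic liver by 1 of its 2 probes, 2.09-fold higher. The other Msr1 probe read -1.59 and -1.87 on those arrays, a difference of 0.28, so the probes disagree on the size. An outlier flag kept Msr1 out of the comparisons with the metformin array; its flagged readings there were 1.11 and 1.96 above the aging diabetic array. Cd36, a fatty acid and scavenger receptor, was flagged on 3 arrays, and with flagged spots it read 2.07 above the natural aging array with APS plus metformin, 1.5 with metformin and 1.55 in the aging diabetic liver. Hp, which encodes haptoglobin, read 3.71, 3.58, 3.78 and 4.18 with APS plus metformin, with metformin, in the aging diabetic liver and in the natural aging liver. Hmox1, the enzyme that breaks down heme, read 1.09, 2.02, 1.24 and 1.73 in the same order; Cd36, Hp and Hmox1 are named after their values were seen.

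Markers of other cells differed between the same arrays. Over 7 pan-leukocyte genes, all well above background, the summed signal in units of the 75th percentile was 11.1 with APS plus metformin, 21.4 with metformin, 13.2 in the aging diabetic liver and 18.5 in the natural aging liver. Over 13 genes of recruited monocytes and lipid-associated macrophages it was 33.5, 43.6, 31.7 and 34.3. The brightest of these genes, Itgam, carries much of that sum through 1 of its 2 probes. The other Itgam probe was not well above background on any array, with -6.15, -5.89, -6.45 and -6.63. Without Itgam, as tried after the data were seen, the other 12 genes summed to 16.0, 31.6, 17.6 and 15.6 on the same arrays. In that list 9 of 12 compared genes were at least 2-fold higher and 0 lower with metformin than in the aging diabetic liver, where 11.8% of all genes were higher and 3.5% lower, among them Trem2, a lipid receptor of lipid-associated macrophages, at 3.41-fold, and Gpnmb, a glycoprotein of the same cells, at 6.81-fold. With APS plus metformin 0 of 12 were higher and 2 lower than in the aging diabetic liver, where 4.39% of all genes were higher and 6.79% lower. The summed signal of 8 Kupffer identity genes was 31.3, 41.5, 35.2 and 47.6 on the same arrays, and that of 20 other macrophage genes 54.3, 90.8, 54.3 and 87.6.

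The leukocyte and other macrophage sums were thus high where Vsig4, Cd5l and Adgre1 were high. Both sums were highest on the metformin array, and Cd163 and Marco were low there. Clec4f was also lower on both metformin arrays than on both others, by less. Sinusoidal endothelium genes summed to 27.5, 28.5, 23.3 and 32.6 over 10 genes, and hepatocyte genes to 88.3, 68.5, 83.5 and 102 over 6 genes, all well above background, with APS plus metformin, with metformin, in the aging diabetic liver and in the natural aging liver. Stellate cell genes summed to 24.6, 27.8, 15.7 and 28.4 over 8 genes in the same order. Genes of peritoneal macrophages, which can lie on the liver surface, summed to 2.54, 2.92, 2.93 and 3.52 over 3 genes, of which Alox15 was not above background on any array. T and NK cell genes summed to 1.78, 4.96, 1.28 and 2.34 over 9 genes. The part of the cell mixture in the members' differences was not tested.

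**Figure D3:**
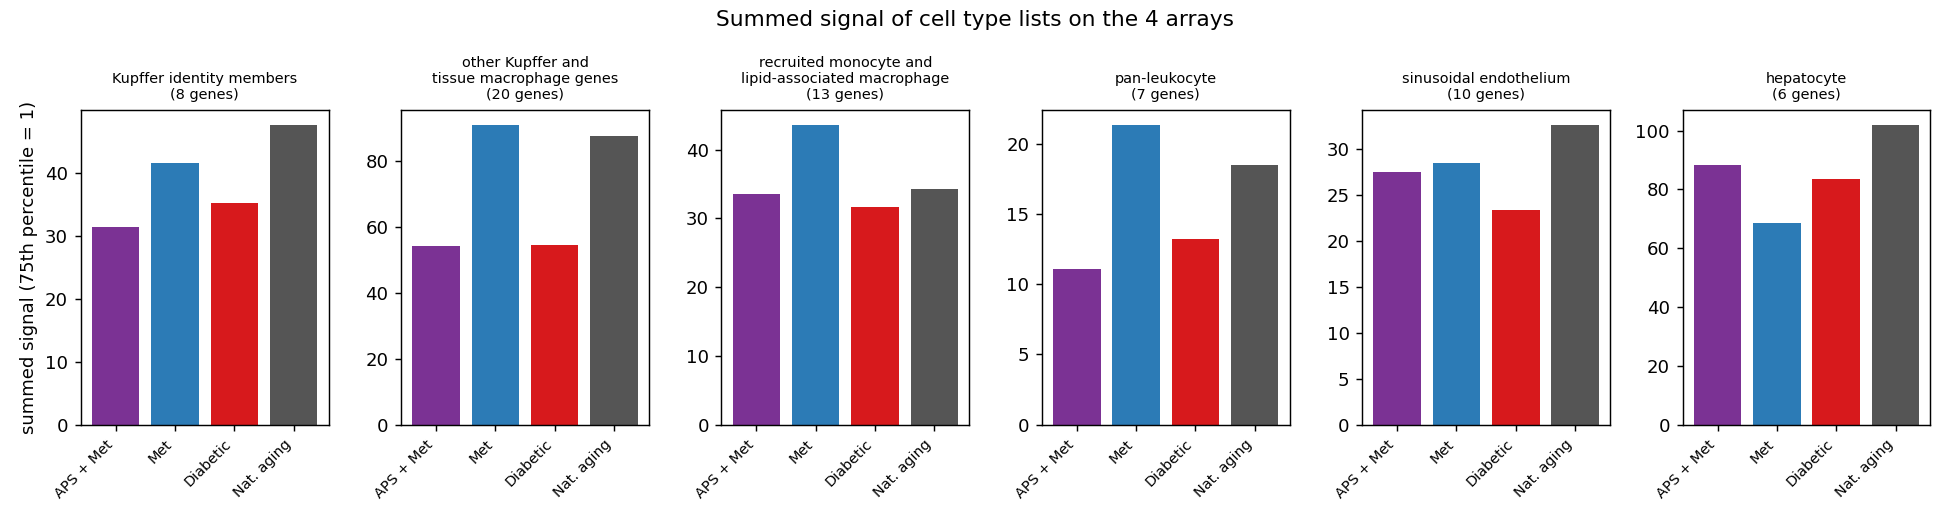
Summed signal of 6 gene lists on the 4 arrays (x axis, array; y axis, sum of signals with the array's 75th percentile set to 1, from 0; bars are single arrays, so there is no error bar; each panel has its own scale). The other macrophage list reaches 90.8 with metformin and 87.6 in the natural aging liver, against 54.3 with APS plus metformin and 54.3 in the aging diabetic liver, while the hepatocyte list is lowest with metformin at 68.5.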

How the data were processed

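Per the file headers, the authors read 4 one-colour Cy5 arrays of 1 slide with Agilent Feature Extraction 11.5.1.1; the submitters' processing notes give version 10.7. The deposited scanner files hold intensity after the software's background subtraction and detrending, with its error and quality flags as other scores of 0 or 1. The deposited series table holds log2 values normalized by the authors in GeneSpring, per the labels' protocols; its columns have equal medians of 7.84, and the method is not stated.

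From the intensity, log2 minus each array's 75th percentile was taken (Python 3.11.15, numpy 2.4.6, pandas 2.3.3). Outlier-flagged spots were dropped, and the brightest usable probe stood for a gene. Accessions matched 33767 of 56605 probes to a symbol; 22838 stayed unnamed. A gene was compared where at least 1 array was well above background, and counted at a log2 difference of 1; where the other array was dim, the difference is a bound against that array's lowest signal well above background. Errors are those of Feature Extraction. With 1 array per group no test was run. Alternatives used limma 3.58.1 in R 4.3.3. Members and lists were chosen with earlier results of these data known. Named genes are all members, up to 4 genes at least 2-fold apart per list and comparison, the genes with the nearest profiles, and those marked as picked with their values in view. The scripts were tested on simulated differences.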

Additional observations from a re-analysis of the deposited data

How the results depend on the processing

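The counts of members at least 2-fold apart kept within 1.5 times of their value under 10 alternative settings, except in 2 comparisons. In the aging diabetic against the natural aging liver the count was 0, but 1 after normexp background correction on median spot signals (Cd163, -1.03) and 1 with outlier spots kept (Timd4, -1.24). In the APS plus metformin against the metformin liver it was 1, but 2 after cyclic loess (Marco, -1.07) and 2 with the 75th percentile taken over probes well above background on all 4 arrays. Of the single differences, 439 of 504 stayed within 1 measurement error of their value and 65 moved further. This limit is tighter than the one used above for differences between arrays. Against the aging diabetic liver, Cd163 lay between -1.90 and -1.62 with metformin and between -1.80 and -1.55 with APS plus metformin, and Marco between -1.40 and -1.29 and between -2.39 and -2.16. Csf1r changed sign when its probes were averaged (0.03 in the aging diabetic against the natural aging liver, -0.11 in the metformin against the aging diabetic liver). The median of the members in the metformin against the natural aging liver was -0.07, and 0.21 after quantile normalization; the cause was not tested. Cyclic loess shifted the median of all genes by -0.14 in the APS plus metformin against the metformin liver and by 0.12 in the metformin against the natural aging liver. The normexp and dropped-probe settings were adapted or added after the data were seen. No paired analysis was possible because each group has 1 array. The number of arrays limits the precision of every value.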
